A study of Mus musculus with 2 samples.

Results

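The Hox genes encode homeodomain transcription factors that lie in 4 clusters, HoxA to HoxD, and are numbered from 1 to 13 by paralog group. The order of the genes along a cluster follows the order in which they act from head to tail and, in the limb, from shoulder or hip to digit. Adult connective tissue and muscle cells keep much of the pattern laid down in the embryo, and groups 9 to 13 mark the hind part of the body and the limbs. All 39 genes whose symbol is Hox, a cluster letter and a number were taken from the 32287 features of the matrix, 11 of them in HoxA, 10 in HoxB, 9 in HoxC and 9 in HoxD. On GRCm39, HoxA lies at chr6:52132570-52237822, HoxB at chr11:96085106-96259082, HoxC at chr15:102829538-102945278 and HoxD at chr2:74498654-74595486.

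They were read in 1 library of GFP+ PI- cells, sorted from tibialis anterior and gastrocnemius muscle of male S100GFPtg mice at 2 months of age, 7 days after sciatic nerve crush. The label gives their genotype as WT, in a study that also used Sod1-/- mice. The transgene places GFP under the S100B promoter, a promoter active in Schwann cells, and propidium iodide (PI) marks dead cells. The study's methods speak of pooled mice and the series text of a single crushed mouse, so the number of animals is uncertain, and there was no replicate. The GFP- library was not analysed here, other than its barcode list.

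The matrix held 36400 barcodes and 170648616 unique molecular identifiers (UMIs, each standing for a captured transcript), 9991 of them from Hox genes. Of 18528 barcodes with at least 2000 UMIs that passed the quality filter, 11255 (60.7%) were placed in 7 classes by UMIs of marker genes. Fibroblasts (2667 barcodes), tenocytes (561), satellite cells (289), Schwann cells (96), smooth muscle cells (71), endothelial cells (75) and myeloid cells (7496) had median depths of 4694 to 9976.5 UMIs. Transcripts of the transgene (Gfp) were found in 75% of Schwann cells, 74.2% of myeloid cells, 62.4% of tenocytes, 53.5% of smooth muscle cells, 42.6% of fibroblasts and 40.5% of satellite cells, without thinning. In endothelial cells 4 of 75 (5.33%) had a Gfp UMI, and the level was 10.5 CPM (3.42 to 24.6) against 125.5 (121.1 to 130.0) in fibroblasts. The highest genes by fold that had not been used for a gate were Chad and Angptl7 in tenocytes, Adgrl3 and Nkain2 in Schwann cells, Fabp4 and Aqp1 in endothelial cells and Hs6st3 in satellite cells. The 7273 barcodes that fitted no gate or more than 1 had 64.4 Hox UMIs per 1000000 UMIs (CPM) and a median depth of 2731 UMIs. Of the barcode sequences, 372 also occurred in the GFP- list (1.02% of the GFP+ list and 0.941% of the GFP- list), 97 of them among gated barcodes.

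Levels were given as CPM over all UMIs of a class, with exact Poisson 95% intervals, and ratios with exact conditional intervals. With 1 library these intervals cover counting error only and say nothing of the spread between animals, so no test was made. A gene was counted as higher or lower in a class where the ratio was at least 2-fold, with at least 20 UMIs in the pair and counts under 3 set to 3. Genes with under 20 UMIs in fibroblasts could reach that minimum only through the other class. Among the higher calls these were Hoxd4 and Hoxd10 in tenocytes and Hoxb2 and Hoxb7 in Schwann cells. In endothelial cells they were Hoxb4, Hoxb7 and Hoxd10, and in myeloid cells Hoxb3 and Hoxb4. For these genes the filter favoured a higher call. Each gene was compared with itself across classes and not with other genes. Of the 39 genes, 17 reached 100 UMIs over the gated barcodes and are described by class, 22 did not, and 3 (Hoxb1, Hoxb13 and Hoxd12) had no UMI in any barcode.

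Every non-myeloid class held Hox transcripts at a summed level above 100 CPM, but the clusters they came from differed. The summed Hox level was 141.2 CPM (interval 136.5 to 146.0) in fibroblasts, 218.7 (206.3 to 231.7) in tenocytes and 168.1 (153.1 to 184.2) in satellite cells. It was 238.0 CPM (199.8 to 281.3) in smooth muscle cells, 113.5 (90.9 to 140.0) in Schwann cells and 333.1 (283.2 to 389.3) in endothelial cells. In myeloid cells it was 9.38 CPM (8.71 to 10.1). From highest to lowest, the intervals of smooth muscle cells and tenocytes overlapped, the log2 ratio between them being 0.12 (-0.14 to 0.38), while the interval of the ratio between every other pair of neighbours lay on 1 side of 0. The number of Hox genes at 1 CPM or more was 16 in fibroblasts, 19 in tenocytes, 22 in smooth muscle cells, 16 in satellite cells, 15 in Schwann cells, 20 in endothelial cells and 2 in myeloid cells. In the 3 smallest classes 1 UMI is already more than 1 CPM, so their numbers are not comparable with the rest.

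**Figure D1:**
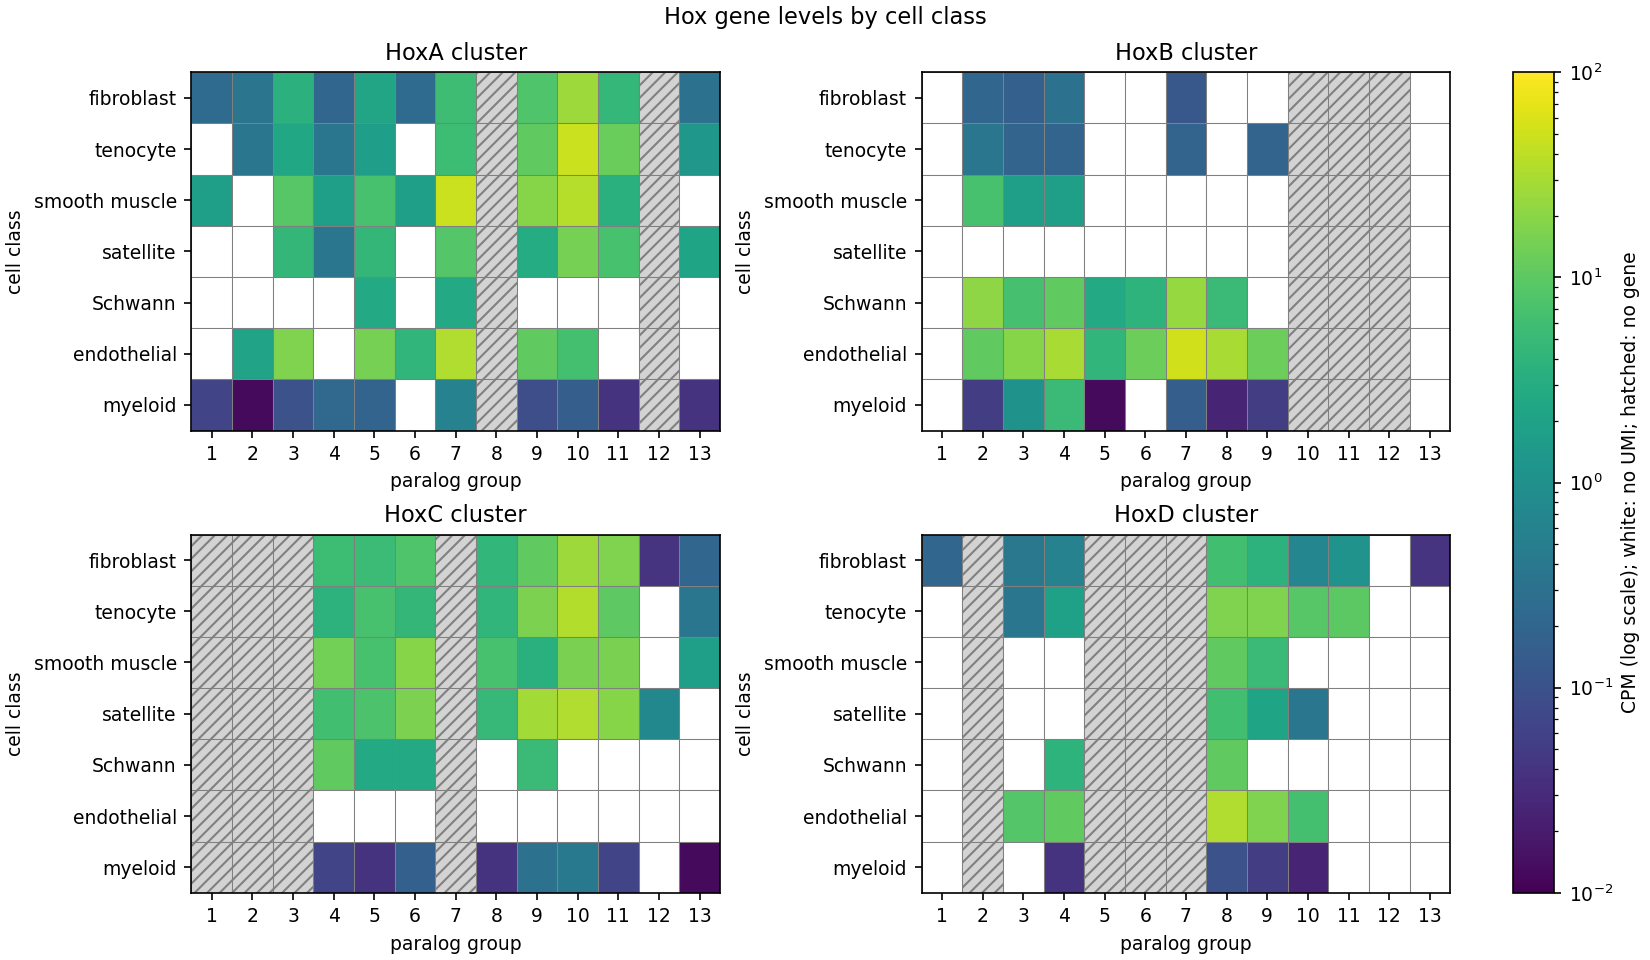
Level of each Hox gene (CPM, logarithmic colour scale) by paralog group (horizontal) and cell class (vertical), with 1 panel for each cluster; white squares had no UMI and hatched squares have no gene. HoxC is empty in endothelial cells and HoxB in satellite cells, and the Schwann row is filled in HoxB but mostly white in groups 9 to 13.

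The share of cells with a Hox UMI followed the same division between myeloid cells and the rest. After each cell was thinned to 1000 UMIs, 12.1% of fibroblasts (Clopper-Pearson 10.9 to 13.4), 20.0% of tenocytes (16.7 to 23.5), 18.3% of satellite cells (14.0 to 23.3) and 13.5% of Schwann cells (7.41 to 22.0) had at least 1. The share was 21.1% in smooth muscle cells, 21.3% in endothelial cells and 1.11% (0.883 to 1.37) in myeloid cells. Without thinning, the shares were 52.8% in fibroblasts, 70.2% in tenocytes, 68.2% in satellite cells, 50% in Schwann cells and 8.06% in myeloid cells, whose median depth of 9976.5 UMIs was the greatest. By cluster, the thinned myeloid share was 0.187% for HoxA, 0.667% for HoxB, 0.227% for HoxC and 0.0267% for HoxD. Free RNA in droplets gives UMIs to cells that do not make a transcript, and its part in these shares was not tested.

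Against fibroblasts, HoxB was higher and HoxC lower in endothelial, Schwann and myeloid cells. For HoxB, the summed level was 168.7 CPM (133.7 to 209.9) in endothelial cells, 73.1 (55.2 to 94.9) in Schwann cells, 10.4 (3.82 to 22.7) in smooth muscle cells and 6.57 (6.01 to 7.16) in myeloid cells. Fibroblasts had 0.810 CPM (20 UMIs in 18 of 2667 cells) and tenocytes 1.13 CPM (6 UMIs). In satellite cells none of 2736780 UMIs came from HoxB, a limit of 1.10 CPM at 3 UMIs of that total and of 1.35 CPM at the upper end of the exact Poisson interval. The log2 ratio to fibroblasts was 7.70 (6.98 to 8.49) in endothelial cells and 6.50 (5.74 to 7.31) in Schwann cells. No HoxC UMI was found in 75 endothelial cells, at least 12.0-fold lower than in fibroblasts, where HoxC stood at 76.2 CPM (72.8 to 79.7). Satellite cells had the most HoxC, 115.1 CPM (102.7 to 128.5), and Schwann cells 20.9 CPM (11.9 to 33.9).

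**Figure D2:**
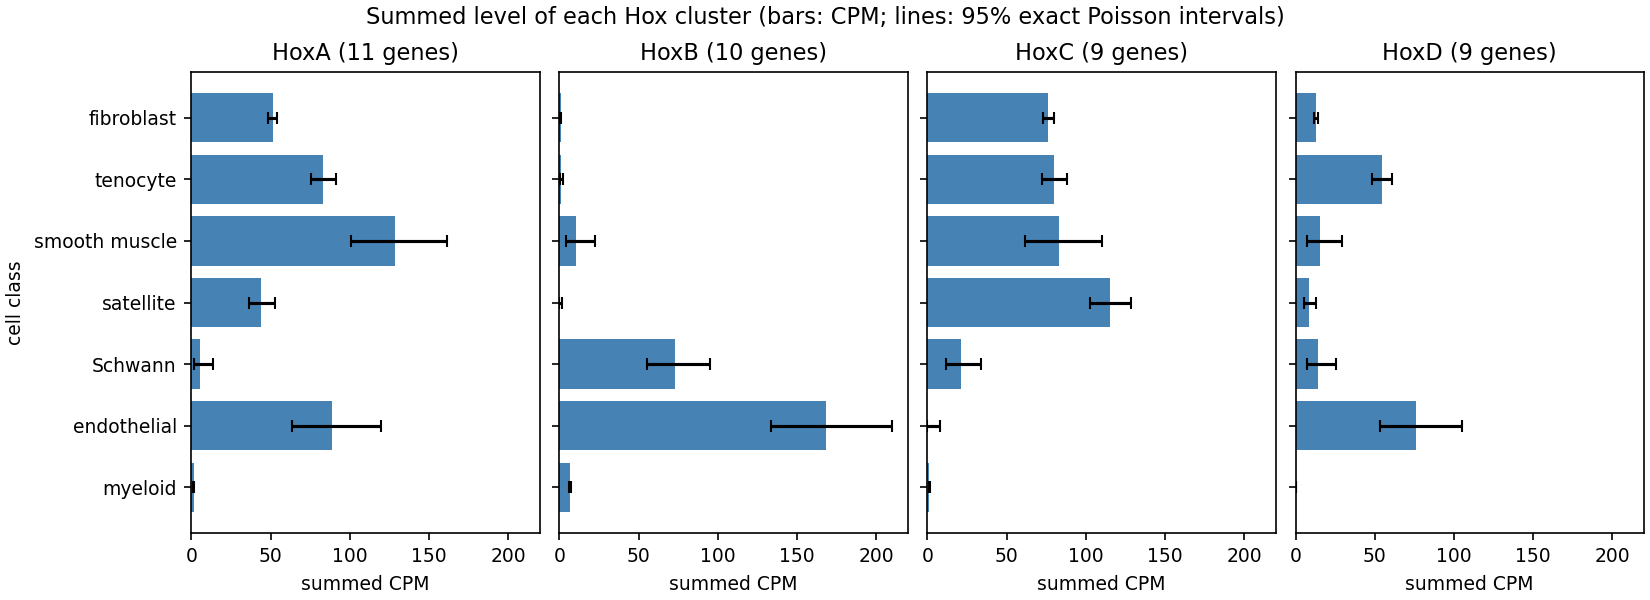
Summed level of the genes of each cluster (CPM, horizontal) in each cell class (vertical); lines are exact Poisson 95% intervals. HoxB is longest in endothelial and Schwann cells, HoxC is absent from endothelial cells, and HoxD is long in tenocytes and in endothelial cells, where it is 75.9 CPM, or 46.9 CPM as the mean over cells.

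Read by position along the clusters, most of the Hox UMIs of fibroblasts, tenocytes and satellite cells came from groups 9 to 11. Groups 9 to 13 gave 69.0% of the Hox UMIs of fibroblasts (67.4 to 70.5), 77.3% of those of tenocytes (74.7 to 79.6) and 65.4% of those of satellite cells (60.9 to 69.8). They gave 42.3% in smooth muscle cells (33.9 to 51.1), 15.8% in endothelial cells (10.5 to 22.5) and 4.60% in Schwann cells (1.27 to 11.4). Expressed as a level, groups 9 to 13 stood at 97.4 CPM in fibroblasts and 5.22 CPM in Schwann cells, a log2 ratio of -4.22 (-6.10 to -2.86). Groups 1 to 8 stood at 43.8 CPM in fibroblasts, 108.3 in Schwann cells and 280.4 in endothelial cells. Within groups 9 to 13 of fibroblasts, groups 9 and 10 gave 76.4% of the UMIs, group 11 gave 22.9% and groups 12 and 13 gave 0.623%. The ends of the clusters had few UMIs. Hoxd13, which acts in the digits, had 1 UMI over all gated barcodes, Hoxc13 had 9, Hoxc12 had 3 and Hoxa13 had 24. Hoxa13 stood at 2.19 CPM (6 UMIs) in satellite cells, 1.32 CPM (7 UMIs) in tenocytes and 0.324 CPM (8 UMIs) in fibroblasts, too few UMIs for the 2-fold rule.

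In fibroblasts 8 of the 16 genes at 1 CPM or more belonged to groups 9 to 13. Hoxa10 (chr6:52208164-52217834, GRCm39), a gene of the thigh and lumbar level, had 25.9 CPM (23.9 to 28.0) with UMIs in 449 cells. Hoxc10 (chr15:102875134-102880330), a hind limb member of the same group, had 25.5 CPM (23.5 to 27.6) with UMIs in 463 cells. Both genes were thus seen in many cells and did not rest on a few. Hoxc11 had 16.6 CPM (15.1 to 18.3), Hoxc9 10.7 (9.44 to 12.1), Hoxa9 7.97 (6.90 to 9.17) and Hoxa11, a gene of the lower leg level, 4.57 (3.77 to 5.50). Of the groups before 9, Hoxc6 had 7.85 CPM, Hoxd8 6.07, Hoxa7 5.63, Hoxc4 5.51, Hoxc5 5.42, Hoxc8 4.33, Hoxa3 3.64 and Hoxa5 2.27. Hoxc5 and Hoxc10 share 166 exon bases on the same strand in the GENCODE M39 annotation (5.37% of the exon bases of Hoxc5 and 8.11% of those of Hoxc10), and reads from that stretch could not be assigned to either. Hoxd3 and Hoxd4 share 388 (5.67% of the exon bases of Hoxd3 and 13.1% of those of Hoxd4), so the level of Hoxd4 is uncertain in the same way.

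Tenocytes, the collagen-producing cells of tendon, had the fibroblast set with more HoxD. Of 18 Hox genes with enough UMIs, 6 were at least 2-fold higher than in fibroblasts (33.3% against a background of 9.79% of all 15498 genes) and 0 were lower (background 14.1%). They were Hoxd11, Hoxd10, Hoxd9, Hoxd8, Hoxd4 and Hoxa11. Hoxd9 had 16.6 CPM (13.3 to 20.4) in tenocytes and 3.76 (3.04 to 4.61) in fibroblasts, and Hoxd8 had 17.0 (13.6 to 20.8) and 6.07 (5.14 to 7.12). The intervals of the 2 classes did not overlap for either gene. Hoxd10 had 8.85 CPM (6.51 to 11.8) against 0.688 (0.401 to 1.10), a log2 ratio of 3.69 (2.86 to 4.58). Hoxd11 had 9.80 CPM (7.32 to 12.8) against 1.13 (0.753 to 1.64), a log2 ratio of 3.11 (2.42 to 3.83). Hoxd4, Hoxd10 and Hoxd11 had under 100 gated UMIs and were singled out after their values were seen. The summed HoxD level was 54.4 CPM in tenocytes and 12.9 in fibroblasts, 4.23-fold apart.

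The HoxA and HoxC genes of tenocytes stayed nearer to those of fibroblasts. Hoxa11 had 12.1 CPM (9.29 to 15.4), a log2 ratio of 1.40 (0.93 to 1.85). Hoxa10 had 48.6 CPM (42.9 to 54.9), a log2 ratio of 0.91 (0.70 to 1.12) that missed the 2-fold rule. Hoxc10 had 34.1 CPM (29.3 to 39.4), while Hoxc11 had 10.4 CPM (7.81 to 13.5), less than in fibroblasts by a log2 ratio of -0.68 (-1.12 to -0.27). The fibroblast marker list, which tendon cells also express, stood at 34339 CPM in tenocytes and 30051 CPM in fibroblasts, and the tenocyte list at 21669 and 534.6 CPM. The contrast in the tenocyte list is set by the tenocyte gate.

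The 4 neighbouring HoxD genes that were higher together in tenocytes are shown by the 250 bases before the start of each gene, taken from RefSeq on GRCm38.p6, plus strand. Capitals mark matches on either strand to TGATNNAT, a sequence bound by Hox and Pbx proteins together, to TGACAG, bound by Meis proteins, to the CCAAT box (CCAAT) or to the TATA box (TATAAA). The windows are Hoxd11 at chr2:74682073-74682322, the later of 2 starts listed (the window of the other start holds none of these motifs), Hoxd10 at chr2:74691641-74691890, Hoxd9 at chr2:74697513-74697762 and Hoxd8 at chr2:74704365-74704614.
Hoxd11: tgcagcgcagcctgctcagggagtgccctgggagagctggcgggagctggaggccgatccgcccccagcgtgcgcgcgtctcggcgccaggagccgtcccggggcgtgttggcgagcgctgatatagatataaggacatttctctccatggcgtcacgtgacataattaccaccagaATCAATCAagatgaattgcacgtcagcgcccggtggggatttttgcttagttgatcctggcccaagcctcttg
Hoxd10: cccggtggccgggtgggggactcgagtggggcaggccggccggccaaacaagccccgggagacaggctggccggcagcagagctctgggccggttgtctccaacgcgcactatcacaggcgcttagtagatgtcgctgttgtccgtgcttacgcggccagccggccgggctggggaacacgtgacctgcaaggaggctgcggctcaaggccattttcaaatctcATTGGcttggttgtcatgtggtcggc
Hoxd9: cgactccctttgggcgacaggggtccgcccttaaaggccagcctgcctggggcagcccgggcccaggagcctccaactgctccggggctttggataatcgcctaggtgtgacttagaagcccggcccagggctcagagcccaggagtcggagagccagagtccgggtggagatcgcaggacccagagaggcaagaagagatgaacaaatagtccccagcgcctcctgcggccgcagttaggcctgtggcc
Hoxd8: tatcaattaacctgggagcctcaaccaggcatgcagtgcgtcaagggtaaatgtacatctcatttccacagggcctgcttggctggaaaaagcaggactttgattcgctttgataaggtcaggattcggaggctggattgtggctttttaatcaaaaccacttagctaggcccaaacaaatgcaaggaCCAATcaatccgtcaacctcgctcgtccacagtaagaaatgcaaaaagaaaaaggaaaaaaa

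No motif occurs in all 4 windows. Hoxd11 has a TGATNNAT match, Hoxd10 and Hoxd8 have a CCAAT match each and Hoxd9 has none. Of all 32851 promoter windows of the same length, 7.68% hold TGATNNAT, 15.9% TGACAG, 33.8% CCAAT and 12.4% TATAAA. Among the 24 windows of 22 Hox genes in the table, 4 held TGATNNAT, 2 TGACAG, 14 CCAAT and 4 TATAAA. A window of Hoxa10, the HoxA gene with the most UMIs in fibroblasts and tenocytes, is chr6:52234940-52235189 on the minus strand, with a TATAAA and a CCAAT match, both on the reverse strand of the gene. It is shown for comparison.
Hoxa10: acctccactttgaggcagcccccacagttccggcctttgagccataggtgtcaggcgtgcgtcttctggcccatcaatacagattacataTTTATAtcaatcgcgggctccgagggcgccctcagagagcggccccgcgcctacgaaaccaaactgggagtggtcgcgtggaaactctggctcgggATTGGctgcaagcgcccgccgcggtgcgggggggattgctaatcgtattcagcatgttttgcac

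Within the fibroblasts, 5 subtypes were named by 2 of their marker genes. Pi16 Dpp4 fibroblasts (530 barcodes) have the markers of adventitial progenitor cells, Smoc2 Cxcl14 (450), Dkk2 Bmper (250) and Gdf10 Inmt (135) are other stromal subtypes, and Apod Tenm2 (39) have the markers of cells around nerves. A further 604 barcodes fitted several lists and 659 none. The summed Hox level was 143.2 CPM (134.1 to 152.9), 123.1 (112.1 to 134.9), 145.1 (130.7 to 160.6), 174.3 (147.1 to 205.1) and 170.0 (137.4 to 208.0) in that order. The subtypes thus differed less in total than the classes did.

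Against all other fibroblasts, the number of Hox genes at least 2-fold apart was 2 of 16 in Pi16 Dpp4 (background 16.3% of 14886 genes), 3 in Gdf10 Inmt (10.6%), 0 in Smoc2 Cxcl14 (7.89%), 1 in Dkk2 Bmper (7.38%) and 1 in Apod Tenm2 (19.2%). As shares of the 16 genes these were 12.5%, 18.8%, 0%, 6.25% and 6.25%, below the background in every subtype but Gdf10 Inmt, where 3 genes passed. Hoxd9 had 1.73 CPM (0.863 to 3.09) in Pi16 Dpp4 cells and 5.90 (3.70 to 8.93) in Smoc2 Cxcl14 cells, and the summed HoxD level 7.23 (5.30 to 9.65) and 18.2 (14.2 to 23.1). Hoxd8 went the same way, with 4.25 CPM (2.80 to 6.18) in Pi16 Dpp4 and 10.2 (7.21 to 14.0) in Smoc2 Cxcl14 cells. The intervals of this pair of subtypes did not overlap for either gene. Hoxc11 was highest in Gdf10 Inmt cells, 36.1 CPM (24.3 to 51.5, 30 UMIs in 20 cells), a log2 ratio of 1.18 (0.59 to 1.71) to the other fibroblasts. Hoxa10 had 34.0 CPM (27.3 to 42.0) in Dkk2 Bmper and 18.5 (14.4 to 23.4) in Smoc2 Cxcl14 cells. Hoxd11 in Dkk2 Bmper, Hoxa5 and Hoxc8 in Gdf10 Inmt and Hoxc5 in Apod Tenm2 cells passed the fold with 5 to 9 UMIs in the subtype. The lower call of Hoxd11 in Pi16 Dpp4 cells rested on 4 UMIs, with a log2 ratio of -1.06 (-3.04 to 0.48). With 0 to 7 UMIs of Hoxd11 in a subtype, its interval reached 8.69 CPM in Gdf10 Inmt cells and overlapped that of tenocytes.

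**Figure D3:**
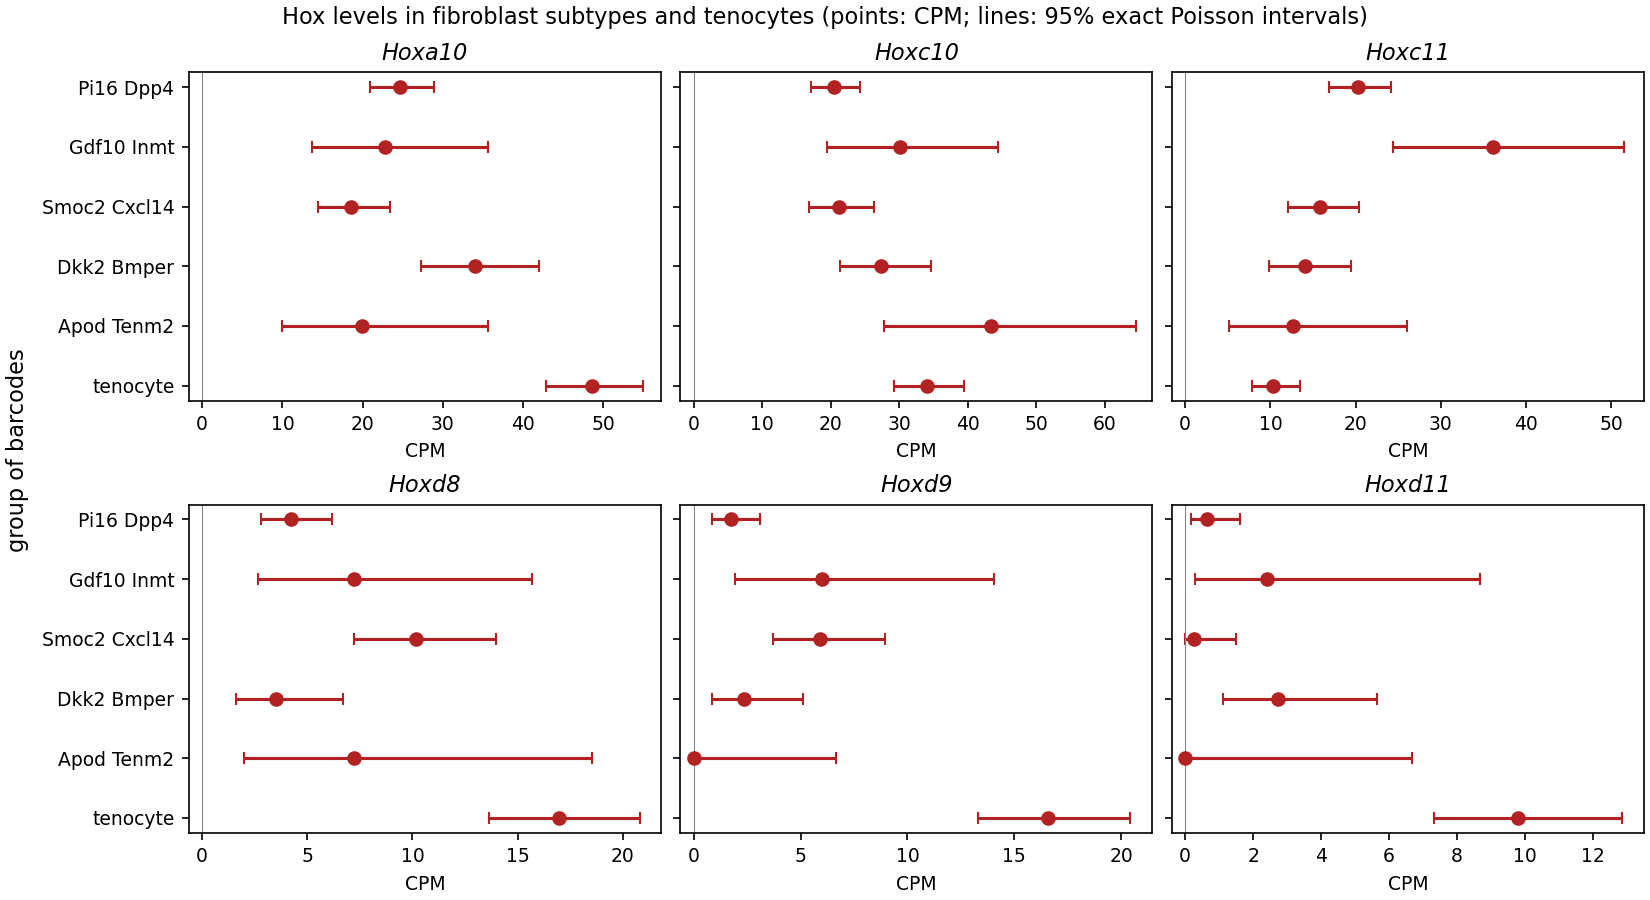
Level of 6 Hox genes (CPM, horizontal, each panel on its own scale) in 5 fibroblast subtypes and in tenocytes (vertical); lines are exact Poisson 95% intervals. The points of tenocytes lie to the right of the subtypes in Hoxa10, Hoxd8, Hoxd9 and Hoxd11, and that of Gdf10 Inmt cells in Hoxc11. The tenocyte intervals overlap those of some subtypes in Hoxd8, Hoxd9 and Hoxd11. In Hoxc11 the interval of Gdf10 Inmt cells overlaps that of Apod Tenm2 cells.

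Satellite cells, the stem cells of muscle fibres, come from the somites and not from the limb mesenchyme of the other stromal classes. Of 16 Hox genes with enough UMIs, 2 were at least 2-fold higher than in fibroblasts (12.5% against a background of 10.7%) and 1 was lower (6.25% against 22.6%), shares near or below the background. Hoxc9 had 27.4 CPM (21.6 to 34.4) and Hoxc6 16.1 (11.7 to 21.6), with log2 ratios of 1.36 (0.97 to 1.73) and 1.03 (0.53 to 1.51). Without the cell with the most Hox UMIs, the ratio of Hoxc6 was 0.97. Hoxa9, the paralog of Hoxc9, had 2.92 CPM (1.26 to 5.76), a log2 ratio of -1.45 (-2.68 to -0.44) that was -0.91 on the mean over cells. HoxC gave 68.5% (64.0 to 72.7) of the Hox UMIs of satellite cells and 54.0% (52.3 to 55.6) of those of fibroblasts. Hoxc10 had 33.6 CPM (27.1 to 41.2), Hoxc11 19.0 (14.2 to 24.9), Hoxa10 14.6 (10.4 to 19.9) and Hoxa11 6.94 (4.18 to 10.8). The log2 ratio of Hoxa10 to fibroblasts was -0.82 (-1.32 to -0.36). Hoxd10 had 1 UMI, a log2 ratio of -0.91 (-6.30 to 1.76), and Hoxd11 had none, with an upper limit of 1.35 CPM against 1.13 CPM in fibroblasts, so no difference was detectable at this depth for either. Fibroblast markers stood at 992.8 CPM in satellite cells against 30051 in fibroblasts, a contrast set by the gates.

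Smooth muscle cells, the contractile cells of vessel walls, were gated by Rgs5, Myh11, Notch3, Kcnj8, Abcc9, Mcam and Acta2. These are markers of smooth muscle and of pericytes, so the class could also hold pericytes. It had the HoxA genes before group 10 at higher levels. Of 16 genes, 6 were higher than in fibroblasts (37.5% against a background of 14.2%) and 1 was lower (6.25% against 12.4%). Hoxa7 had 48.6 CPM (32.3 to 70.3, 28 UMIs in 19 of 71 cells), a log2 ratio of 3.11 (2.47 to 3.71). The others rested on 4 to 11 UMIs each, namely Hoxa9 and Hoxc6 at 19.1 CPM (9.54 to 34.2), Hoxc4 at 13.9, Hoxa3 at 8.69 and Hoxa5 at 6.95. The intervals of the ratios of Hoxa3 and Hoxa5 reached below 0. In cells with at least 5000 UMIs the log2 ratio of Hoxc4 was 0.08 and that of Hoxa9 0.73, so neither passed the fold. Hoxc9 was lower, with 2 UMIs and a log2 ratio of -1.62 (-4.67 to 0.25). Hoxa10 had 36.5 CPM (22.6 to 55.8). Of the 9 Hoxc11 UMIs, 5 were in 1 cell.

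Endothelial cells, which line the vessels, had the anterior and middle groups of HoxA, HoxB and HoxD and no HoxC. Of 19 genes, 8 were higher than in fibroblasts (42.1% against a background of 16.3%) and 3 were lower (15.8% against 11.2%). Hoxb7 had 50.6 CPM (32.4 to 75.3, 24 UMIs in 19 of 75 cells) against 0.121 in fibroblasts, which rested on 3 UMIs, a log2 ratio of 8.70 (6.98 to 11.1). Hoxb4 had 29.5 CPM (16.1 to 49.5), Hoxb3 19.0 (8.68 to 36.0), and Hoxa7 and Hoxd8 33.7 (19.3 to 54.8). Hoxb8 had 14 UMIs, 29.5 CPM, and none in fibroblasts. These genes were present in 8 to 19 of the 75 cells each. Hoxa3, at 16.9 CPM, and Hoxa5, at 14.8 CPM, had log2 ratios of 2.21 (0.96 to 3.25) and 2.70 (1.32 to 3.84). Hoxd9 had 16.9 CPM (7.28 to 33.2) and Hoxd10 3 UMIs. Hoxa9 had 5 UMIs, 4 of them in 1 cell. Hoxc10 was at least 4.03-fold lower and Hoxc11 at least 2.63-fold lower than in fibroblasts, both without a UMI. The 3 UMIs of Hoxa10 were all in 1 cell, so 74 of the 75 cells had none.

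Schwann cells, the glia of the peripheral nerve, come from the neural crest. Of 18 genes, 2 were higher than in fibroblasts (11.1% against a background of 21.4%) and 6 were lower (33.3% against 13.3%). The higher ones were Hoxb7, at 23.5 CPM (13.9 to 37.1, 18 UMIs in 18 cells), and Hoxb2, a gene known from the hindbrain, at 20.9 CPM (11.9 to 33.9, 16 UMIs in 14 cells). Their log2 ratios of 7.60 (5.82 to 10.0) and 6.69 (5.17 to 8.49) rested on 3 and 5 UMIs in fibroblasts. Hoxb4 had 10.4 CPM (4.51 to 20.6) and Hoxb3 6.52 (2.12 to 15.2). Hoxa10, Hoxc10 and Hoxc11 had no UMI among 766541, at least 6.61-fold, 6.52-fold and 4.25-fold lower than in fibroblasts. Hoxa9 likewise had none, at least 2.04-fold lower. Fibroblast markers stood at 1294 CPM in these cells, where the gate capped them. Hoxc6 had 2 UMIs and Hoxc9 4, with log2 ratios of -1.59 (-4.65 to 0.28) and -1.03 (-2.92 to 0.34), and Hoxc4 had 8 UMIs, 10.4 CPM. In cells with at least 5000 UMIs the ratio of Hoxc9 was -0.90, short of the fold. Hoxb2, Hoxb7 and Hoxb8 had under 100 gated UMIs and were singled out after their values were seen.

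Myeloid cells, macrophages and their relatives from the bone marrow, had 2 Hox genes above 1 CPM. Of 19 genes, 2 were higher than in fibroblasts (10.5% against a background of 20.2%) and 16 were lower (84.2% against 27.5%). The higher genes were neighbours in HoxB. Hoxb4 (chr11:96209093-96212464), known from blood stem cells, had 5.19 CPM (4.70 to 5.72), with 408 UMIs in 363 cells, against 0.324 CPM in fibroblasts, a log2 ratio of 4.00 (3.01 to 5.22). Hoxb3 had 1.08 CPM (0.864 to 1.34), 85 UMIs in 76 cells, a log2 ratio of 2.74 (1.33 to 4.65) on 4 UMIs in fibroblasts. Both genes were spread thinly over many cells, with at most 3 UMIs in any of them. Hoxa10 had 0.153 CPM and Hoxc10 0.407 CPM, beside fibroblast markers at 62.3 CPM, capped by the gate, and 30051 CPM in fibroblasts. The part of free RNA in these low levels was not tested.

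Myeloid cells with at least 2 of Lyve1, Folr2 and Cbr2, markers of resident macrophages, had Hoxb4 at 5.75 CPM (4.93 to 6.67, 2761 barcodes). Those with at least 2 of Ly6c2, Chil3 and Plac8, markers of monocytes, had 5.74 CPM (3.55 to 8.77, 366 barcodes). Those with at least 2 of Flt3, Xcr1, Clec9a, Cd209a and Ccr7, markers of dendritic cells, had 5.98 CPM (2.40 to 12.3, 100 barcodes). Cells with at least 2 of Gpnmb, Fabp5 and Spp1 had 3.10 CPM (2.08 to 4.46, 670 barcodes). The largest group, 3462 barcodes on no list, had 5.23 CPM (4.48 to 6.07). Hoxb3 had 1.26 CPM (0.894 to 1.73) in Lyve1 Folr2 cells, 1.31 CPM (0.946 to 1.76) in cells on no list and 0.107 CPM (0.00271 to 0.596, 1 UMI) in Gpnmb Fabp5 cells. These groups were formed after the data had been seen. The window before the start of Hoxb4, chr11:96318017-96318266 on the plus strand (RefSeq, GRCm38.p6), holds none of the 4 motifs and is shown because Hoxb4 was the Hox gene with the most UMIs in myeloid cells.
Hoxb4: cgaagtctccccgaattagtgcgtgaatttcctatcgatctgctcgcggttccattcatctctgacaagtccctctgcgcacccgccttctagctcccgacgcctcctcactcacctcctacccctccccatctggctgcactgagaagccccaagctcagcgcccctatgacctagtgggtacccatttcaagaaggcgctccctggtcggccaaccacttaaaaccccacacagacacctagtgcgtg

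Hind limb identity is set in the embryo by Pitx1 and Tbx4, and fore limb identity by Tbx5. Pitx1 had 8.26 CPM (7.16 to 9.47) in fibroblasts and 17.1 (13.8 to 21.0) in tenocytes, where it was 2.08-fold higher. It had 0.365 CPM (1 UMI) in satellite cells, and no UMI in smooth muscle or endothelial cells, where the upper limits were 6.41 and 7.78 CPM. Tbx4 was more even, with 4.94 CPM (4.10 to 5.90) in fibroblasts, 5.28 (3.51 to 7.62) in tenocytes and 9.13 (5.91 to 13.5) in satellite cells. Tbx5 was detected in fibroblasts of these hind limb muscles, with 86 UMIs in 57 cells, or 3.48 CPM (2.78 to 4.30). It had 1 UMI in tenocytes, 1 in 7496 myeloid cells and none in satellite cells, at least 3.18-fold lower than in fibroblasts. It had none in smooth muscle, Schwann and endothelial cells either, but their upper limits of 6.41, 4.81 and 7.78 CPM lie above the fibroblast level.

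Both Pitx1 and Tbx5 were concentrated in Pi16 Dpp4 fibroblasts. This split was made after the data had been seen. Of the 86 Tbx5 UMIs, 66 were in this subtype, in 40 of its 530 cells, at 10.4 CPM (8.03 to 13.2), while Smoc2 Cxcl14 cells had 0.268 CPM (1 UMI) and Dkk2 Bmper cells 0.782 CPM (2 UMIs). Pitx1 had 18.7 CPM (15.5 to 22.4) in Pi16 Dpp4, 7.43 (4.47 to 11.6) in Dkk2 Bmper and 2.95 (1.47 to 5.28) in Smoc2 Cxcl14 cells. Tbx4 did not share this order, with 2.67 CPM (1.56 to 4.28) in Pi16 Dpp4 and 6.26 (3.58 to 10.2) in Dkk2 Bmper cells. The 57 fibroblasts with a Tbx5 UMI, deeper than the rest at a median of 18572 UMIs against 4605.5, had 139.1 Hox CPM (117.1 to 164.1), and those without had 141.3 (136.5 to 146.1). Their Hoxc10 level was 30.6 CPM (20.8 to 43.4) against 25.3 (23.3 to 27.4), and the intervals overlapped.

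**Figure D4:**
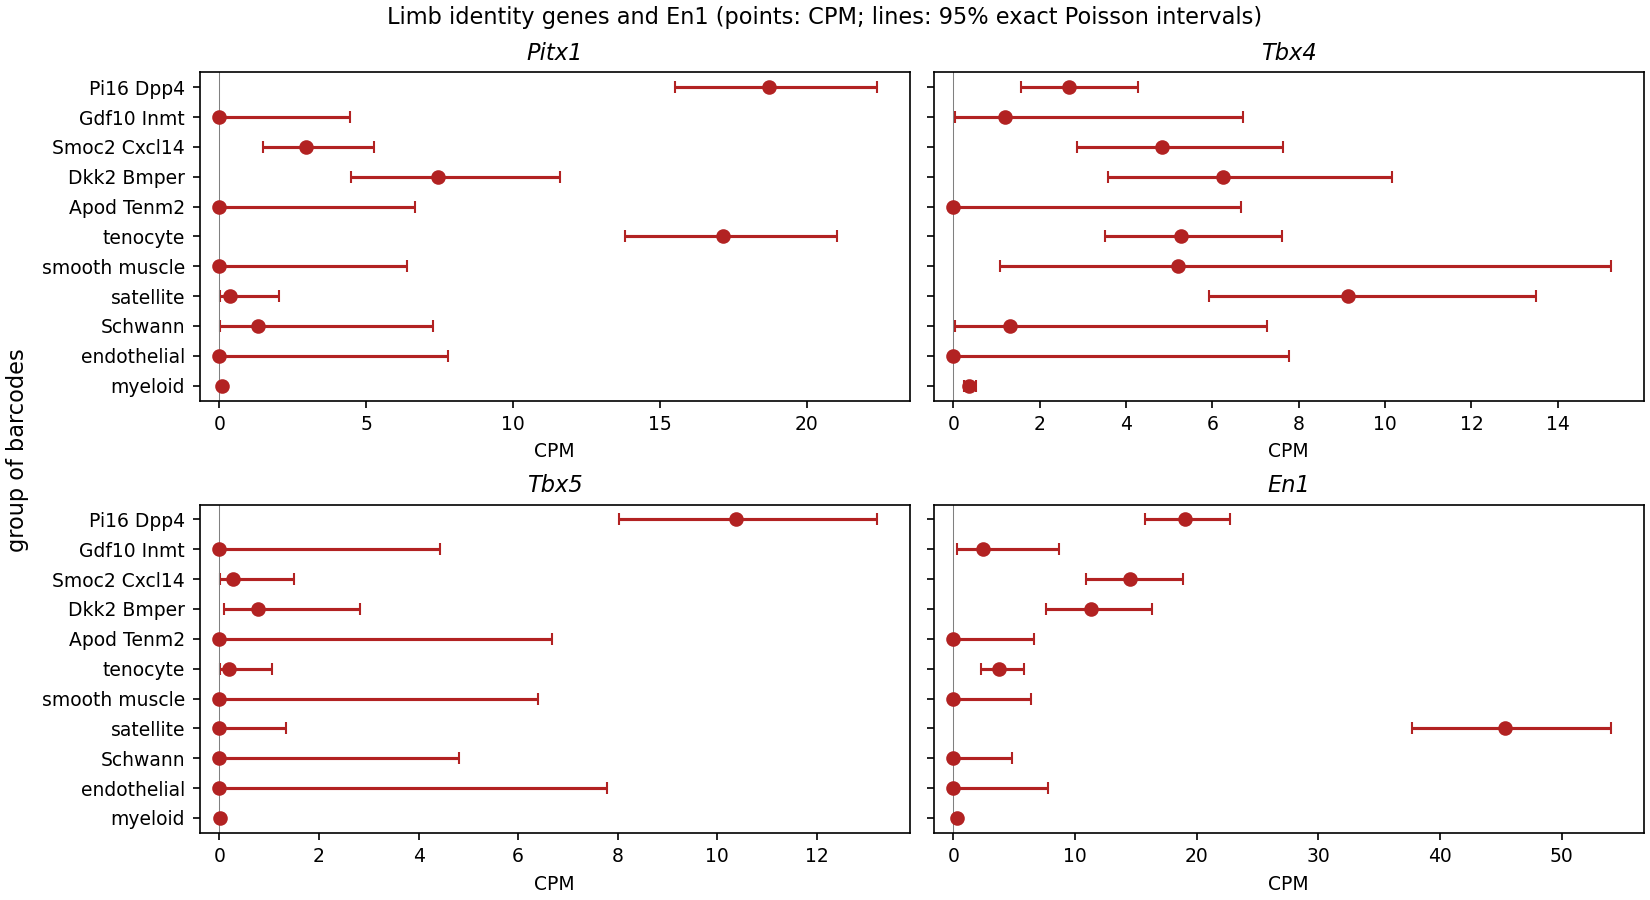
Level of Pitx1, Tbx4, Tbx5 and En1 (CPM, horizontal, each panel on its own scale) in 5 fibroblast subtypes and the other 6 classes (vertical); lines are exact Poisson 95% intervals. Pi16 Dpp4 cells lie far to the right in Tbx5 and, with tenocytes, in Pitx1, and satellite cells lie farthest to the right in En1.

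Of 22 limb and stromal patterning genes, 17 had enough UMIs for satellite, Schwann, endothelial and myeloid cells, and most of these were lower there than in fibroblasts. Prrx1, an early marker of limb mesenchyme, had 315 CPM in fibroblasts, 472 in tenocytes, 189 in smooth muscle, 96.1 in satellite, 30.0 in Schwann and 6.32 in endothelial cells. Shox2 had 71.7 CPM in fibroblasts and no UMI in satellite or Schwann cells, at least 65.4-fold and 18.3-fold lower. Lower than in fibroblasts were 14 of 17 in satellite cells (82.4% against a background of 22.6%), 11 in Schwann cells (64.7% against 13.3%), 9 in endothelial cells (52.9% against 11.2%), 17 in myeloid cells (100% against 27.5%), 6 in smooth muscle cells (35.3% against 12.4%) and 4 of 18 in tenocytes (22.2% against 14.1%). Higher were 1 in satellite cells (5.88% against 10.7%), 0 in Schwann cells (21.4%), 2 in endothelial cells (11.8% against 16.3%), 0 in myeloid cells (20.2%), 2 in smooth muscle cells (11.8% against 14.2%) and 4 in tenocytes (22.2% against 9.79%). The gene higher in satellite cells was En1, which acts in the ventral ectoderm of the limb bud and in the somite, at 45.3 CPM (37.7 to 54.0) in 74 cells against 14.4 (12.9 to 15.9) in fibroblasts.

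The genes higher in tenocytes were Alx4, Hand2, Meox1 and Tbx2. Alx4 had 8.67 CPM in tenocytes and 0.324 in fibroblasts, and Hand2, which acts on the posterior side of the limb bud, had 10.4 and 3.16. In smooth muscle cells Tbx2 had 125 CPM and Tbx3 74.7, against 4.53 and 9.67 in fibroblasts. In endothelial cells Meox1 had 73.8 CPM, a log2 ratio of 1.68 (1.15 to 2.18), and Meox2 122 CPM.

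Pbx and Meis proteins bind DNA together with Hox proteins. Of 8 cofactor genes, 0 were at least 2-fold higher than in fibroblasts in tenocytes (background 9.79%), 1 in smooth muscle cells (14.2%), 2 in satellite cells (10.7%), 1 in Schwann cells (21.4%), 0 in endothelial cells (16.3%) and 1 in myeloid cells (20.2%), where 1 of 8 is 12.5%. Lower were 0 in tenocytes (14.1%), 1 in smooth muscle cells (12.4%), 2 in satellite cells (22.6%), 2 in Schwann cells (13.3%), 2 in endothelial cells (11.2%) and 4 in myeloid cells (27.5%), where 2 of 8 is 25% and 4 of 8 is 50%. Pbx3 was higher in 3 classes, with 41.7 CPM in fibroblasts, 87.3 in satellite cells, 132 in Schwann cells and 105 in myeloid cells. Meis2 had 76.4 CPM in fibroblasts, 59.0 in endothelial cells and 0.731 CPM (2 UMIs) in satellite cells, a log2 ratio of -6.71 (-9.76 to -4.85). Meis1 had 33.6 CPM in fibroblasts and no UMI in endothelial cells, at least 5.31-fold lower.

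**Figure D5:**
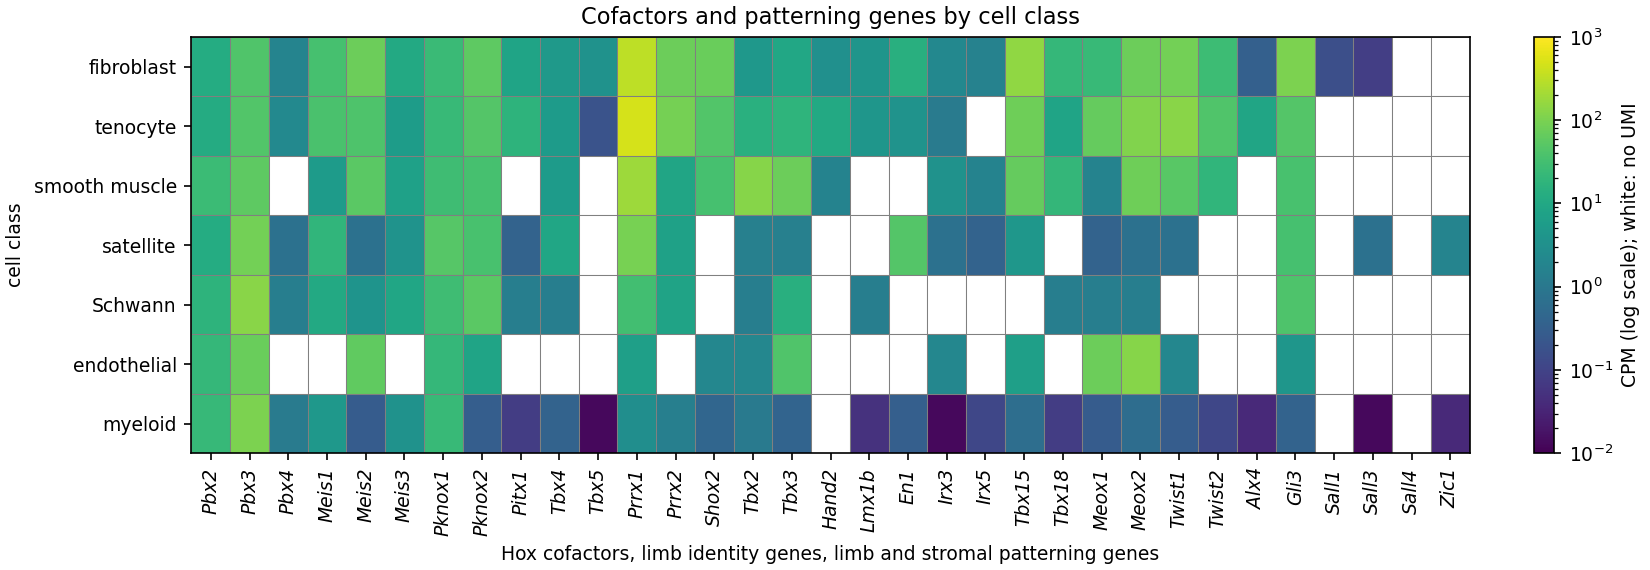
Level (CPM, logarithmic colour scale) of 8 Hox cofactors, 3 limb identity genes and 22 limb and stromal patterning genes (horizontal) in 7 cell classes (vertical); white squares had no UMI. Pbx2, Pbx3 and Pknox1 are filled in every class, while most of the 17 patterning genes with enough UMIs are lower in satellite, Schwann, endothelial and myeloid cells than in fibroblasts, with En1 in satellite cells and Tbx3 and Meox1 in endothelial cells higher.

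Of 11 noncoding RNAs made from the clusters, 4 or 5 had enough UMIs in each comparison. Higher than in fibroblasts were 2 of 4 in tenocytes, smooth muscle and endothelial cells (50% against backgrounds of 9.79%, 14.2% and 16.3%), and 0 in satellite, Schwann and myeloid cells. Lower were 1 of 4 in tenocytes and in satellite cells (25% against 14.1% and 22.6%), 3 of 5 in myeloid cells (60% against 27.5%) and 0 in the other classes. Hoxa11os, the antisense transcript of Hoxa11, had 6.96 CPM in fibroblasts and 15.6 in tenocytes, a log2 ratio of 1.17 (0.77 to 1.55). Hoxd3os1 had 3.28 CPM in fibroblasts, 9.80 in tenocytes and 31.6 in endothelial cells. Hotairm1, at the anterior end of HoxA, had 33.7 CPM in endothelial cells, 26.1 in smooth muscle cells, 5.06 in fibroblasts and 1.10 in satellite cells. Hotair, made from HoxC, had 4.02 CPM in satellite cells, 2.10 in fibroblasts and 2.45 in tenocytes. It had no UMI in endothelial or Schwann cells, whose upper limits of 7.78 and 4.81 CPM lie above the fibroblast level.

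Of 9 genes beside the clusters, 5 or 6 had enough UMIs in each comparison. At least 2-fold higher than in fibroblasts was 1 gene each in tenocytes (Lnpk), smooth muscle cells (Calcoco1), Schwann cells (Lnpk), endothelial cells (Smug1) and myeloid cells (Skap2), and lower was 1 each in tenocytes, satellite and Schwann cells (Skap2) and in myeloid cells (Smug1). A single gene is 16.7% of 6 or 20% of 5, beside backgrounds of 9.79% to 21.4% higher and 11.2% to 27.5% lower. Lnpk, which flanks HoxD, had 62.9 CPM in tenocytes and 23.3 in fibroblasts, a log2 ratio of 1.43 (1.24 to 1.63), 53.5 in Schwann cells, where HoxD was at 14.4 CPM, and 27.4 in endothelial cells. Mtx2, a neighbour of HoxD on the other side, had 28.8 CPM in tenocytes and 30.8 in fibroblasts. Skap2, which flanks HoxA, had 312 CPM in myeloid cells and 51.3 in fibroblasts. The 3 Cdx genes, which act on Hox clusters in the early embryo, had 2 UMIs in fibroblasts and 1 in myeloid cells, all of Cdx1. Of 16 chromatin regulators of Hox clusters, 0 to 3 were higher and 0 to 2 lower than in fibroblasts in any class. These shares lay below the background in each class but endothelial cells, where they were near it, 18.8% higher against 16.3% and 12.5% lower against 11.2%.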

How the data were processed

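The members and gene lists were chosen with earlier results of these data known. Per the labels and the study's methods, the authors made a droplet 3' library and counted UMIs with Cell Ranger (8.0.1 in the matrix header, 7.1.0 in the labels), against a genome given as mm10 in the labels and under more than 1 build in the methods. The deposited counts are raw UMI counts per gene and barcode. The study's doublet and ambient RNA corrections were not applied here.

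Barcodes with at least 2000 UMIs, over 200 genes and at most 10% mitochondrial UMIs were kept. Classes were set by marker UMIs per 10000 UMIs and a minimum number of markers detected (fibroblast 80 and 4 of 8, tenocyte 60 and 3 of 7, Schwann 8 and 3 of 7, endothelial 16 and 4 of 9, satellite 4 and 3 of 6, smooth muscle 16 and 3 of 7, myeloid 20 and 4 of 8). Myeloid markers had to be below 10 in other classes and fibroblast markers below 10 in myeloid cells. In Schwann, endothelial, satellite and smooth muscle cells, fibroblast markers had to be below 80. These limits were set after the marker distributions had been seen, without use of Hox UMIs. No doublet caller was run, and 26 barcodes that fitted 2 gates were left out, as were those rich in erythroid or muscle fibre markers. Fibroblast subtypes and myeloid groups needed 10 UMIs per 10000 over at least 2 markers. The Apod Tenm2 subtype instead needed an Apod UMI and at least 2 UMIs of Tenm2 and Col28a1 together. That rule uses no rate and so favours deep barcodes, and the median of this subtype was 13354 UMIs. CPM were computed on summed UMIs. In the rule of size the higher class needed at least 3 UMIs. Genes described by class were those with at least 100 gated UMIs, and of other lists those with the most UMIs or at least 2-fold from fibroblasts. A cofactor gene and a leading gene of a class are not reported here. With 1 library no test across samples was possible. Positions of all 39 genes came from GENCODE M39 on GRCm39, and promoter windows from RefSeq on GRCm38.p6. The ratio step was tested on simulated data. Python 3.11.15, numpy 2.4.6, scipy 1.17.1 and pandas 2.3.3 were used.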

Additional observations from a re-analysis of the deposited data

How the results depend on the processing

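No paired analysis was possible because the library analysed is alone in its group and no groups were compared. The alternatives were barcodes with at least 5000 UMIs, no mitochondrial or gene filter, doubled gate minimums, no deepest 5% of a class and the mean over cells of CPM. Added after the data had been seen were a myeloid marker limit of 20, no barcodes shared with the GFP- list and no barcode with the most Hox UMIs of its class. These settings were not run for the levels in fibroblast subtypes. Of 53 ratios called between classes, 7 had a class without a UMI and were not recomputed. None of the other 46 changed its direction, and 6 missed the fold under at least 1 alternative. Besides those named with Hoxc4, Hoxa9, Hoxc6 and Hoxc9, it was Hoxa3 in smooth muscle cells, at 0.94 on the mean over cells. The number of Hox genes at 1 CPM or more stayed within 1.5 times its value in all 56 recomputed cases. The summed level moved out of its interval in 4 of 56 and its ratio in 5 of 48 cases, cluster levels in 11 of 224, gene levels in 22 of 952 and gene ratios in 12 of 364, and the cause was not tested. In fibroblasts the summed level was 132.8 CPM on the mean over cells and 134.6 with the limit of 20. In myeloid cells it was 8.36 CPM with doubled gates and 11.01 on the mean over cells, and its log2 ratio to fibroblasts -4.05 from 5000 UMIs, -4.11 with doubled gates and -3.59 on the mean over cells. On the mean over cells the ratio was 0.74 in tenocytes and 1.05 in smooth muscle cells, and the HoxD level of endothelial cells 46.9 CPM, against 75.9 CPM on summed UMIs. The share of cells with a Hox UMI scales with depth by construction. Thinned to 500 UMIs it was 5.96% in fibroblasts, 11.6% in tenocytes, 7.04% in smooth muscle, 6.57% in satellite, 4.17% in Schwann, 10.7% in endothelial and 0.494% in myeloid cells, and unthinned 52.8%, 70.2%, 66.2%, 68.2%, 50%, 76% and 8.06% in that order.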

Other observations

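Of the RNAs of the HoxA cluster in myeloid cells, Hotairm1, a noncoding RNA at the anterior end of HoxA that is known from the myeloid lineage, had 372 UMIs and 4.73 CPM, against 5.06 CPM in fibroblasts, a log2 ratio of -0.10 (-0.39 to 0.21). The 11 HoxA genes summed to 1.501 CPM there. Hoxaas3 had 45 UMIs and 0.573 CPM, against 0.364 CPM in fibroblasts, and Hoxa4 17 UMIs and 0.216 CPM, against 0.202 CPM. Hoxa7 had 47 UMIs in 37 cells and 0.598 CPM, lower than the 5.63 CPM of fibroblasts. Of the Hoxa7 UMIs, 10 lay in 4 of the Ly6c2 Chil3 cells, and 7 of these in 1 cell.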
